A study of Mus musculus with 6 samples.

Results

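Molecular chaperones bind unfolded proteins and keep them from aggregating, and many are induced by heat and other stress through heat shock factors (HSFs), transcription factors that bind repeats of a short sequence, the heat shock element. HSP70 proteins work in a cycle in which DNAJ proteins deliver clients and drive ATP hydrolysis, while BAG proteins and the HSP110 relatives release the nucleotide. In human erythroblasts, HSP70 is known to protect the transcription factor GATA1 from cleavage by caspases. The genes described here were chosen by a rule on their symbols, set with earlier results of these data known. It takes genes named Dnaja, Dnajb or Dnajc, Hspa, Hspb, Hspd, Hspe or Hsph, Hsp90, Hsf or Bag followed by a number. The rule found 77 of the 19661 genes tested, among 84 protein-coding RefSeq genes that match it. The other 7 (Hsf1, Hsp90aa1, Hsp90ab1, Hspa1b, Hspb1, Hspe1 and Dnajc3) were not analysed here. Classes were 5 HSF, 1 HSP90, 13 HSP70 and HSP110, 7 small HSP, 1 chaperonin, 4 DNAJA, 13 DNAJB, 27 DNAJC and 6 BAG genes. A few carry a family symbol without its usual role, such as Hsf2bp, a binding partner of HSF2, and Hspb11, a subunit of the intraflagellar transport complex.

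Megakaryocyte-erythroid progenitors, which form red cells and platelets, were sorted from the bone marrow of B6.129 mice as lineage-negative, Kit-positive, Sca1-negative, CD34-negative cells with low FcγRII/III. Progenitors with 2 knock-in alleles of Fog1 (Fog1ki/ki, 3 arrays) were compared with those of wild-type mice (Fog1+/+, 3 arrays). The FOG1 protein, the product of Zfpm1, partners GATA1. The labels do not describe the knock-in allele, the promoter or cells in which it acts, the age of the mice or how many mice each array represents, and p-values measure the spread between these arrays. The knock-in is known from outside the labels as one that removes the contact of FOG1 with NuRD, a chromatin complex. Values are log2 RMA values, and differences are Fog1ki/ki minus Fog1+/+ on the log2 scale.

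Array medians over the tested genes lay between 6.16 and 6.31 in Fog1ki/ki, and between 6.19 and 6.20 in Fog1+/+. Erythroid markers (7 measured, among them Klf1, Epor and Car1) had mean values of 9.75 to 9.89 in Fog1ki/ki arrays, against 9.87 to 9.96 in Fog1+/+ arrays. In difference 6 lay below 0 and 1 above (median -0.08), and 0 of 7 passed the test. In the brightest group of genes described below, which holds 5 of the 7, 67.8% of all genes lay below 0. All 8 mast cell markers lay above 0 in difference, 2 of them past the threshold (Ms4a2 and Rgs13). The log2 differences ran from 0.06 (Hdc) to 3.79 (Ms4a2), with a median of 0.37. Mean values of the 8 were 5.60 to 6.18 in Fog1ki/ki arrays, against 4.65 to 4.75 in Fog1+/+ arrays. The 4 basophil markers had mean values of 6.09 to 6.38 in Fog1ki/ki, against 5.61 to 5.71 in Fog1+/+, and 0 passed. The 4 megakaryocyte markers measured, of 8 listed, all lay above 0 in difference, with mean values of 6.88 to 7.24 in Fog1ki/ki arrays, against 6.61 to 6.78 in Fog1+/+ arrays, and 0 passed. The platelet factor gene Pf4 had the highest of their log2 differences, 0.97 (limma adjusted p = 0.266). The part of these cell-type differences in the results below was not tested, and in sorted cells measured in bulk, fewer cells of a type and less RNA per cell cannot be told apart. Replicate 3 of each genotype had low Y-linked values (Eif2s3y 3.46 in Fog1ki/ki and 3.21 in Fog1+/+, at least 9.29 in the other arrays), and the main results are given without these arrays as well.

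Hsf2 was the one member that passed the test. Its transcript was 2.22-fold lower in Fog1ki/ki progenitors. HSF2 is a heat shock factor active in development and differentiation, and in human erythroleukaemia cells it is known to be activated by haemin. The 250 bases upstream of its start are shown because it is the gene the comparison turns on. These bases lie at chr10:57486135-57486384 on the plus strand (RefSeq, GRCm38.p6), with capitals marking its 2 CCAAT boxes (CCAAT or, on the other strand, ATTGG):
Hsf2: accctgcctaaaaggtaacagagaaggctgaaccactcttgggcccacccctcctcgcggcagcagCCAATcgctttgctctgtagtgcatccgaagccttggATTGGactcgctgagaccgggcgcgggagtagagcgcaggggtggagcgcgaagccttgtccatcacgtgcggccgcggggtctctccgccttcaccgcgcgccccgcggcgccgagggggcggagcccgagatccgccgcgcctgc

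A CCAAT box stood in 33.8% of the 32851 promoter windows of this length in the table, and in 29 of 81 windows of the 63 members that matched it. GATA sites were searched as AGATAA or TGATAA and, on the other strand, TTATCT or TTATCA. These letters stood in 16.6% of all windows and in 3 of the 81 member windows, those of Dnajb7, Dnajc24 and Hspb9, and the window of Hsf2 did not hold them. A match here is a description of letters and not of binding.

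Hsf2 measured 6.28, 6.34 and 5.95 in the Fog1ki/ki arrays, against 7.57, 7.18 and 7.27 in the Fog1+/+ arrays. All 3 Fog1ki/ki values lay below all Fog1+/+ values, with a gap wider than the spread inside either genotype. The means were 6.19 ± 0.21 and 7.34 ± 0.20 (SD, n = 3 each), a log2 difference of -1.15 (SE 0.14, 95% confidence interval -1.47 to -0.83, limma adjusted p = 0.00819 over all 19661 genes). Of all genes tested 0.773% were called in either direction, 0.397% lower and 0.376% higher. A single call lower and 0 higher among 77 members is near that background. The Hsf2 call held with each array left out in turn, with limma adjusted p from 0.0189 to 0.0460. Without both replicates numbered 3 its log2 difference was -1.07 with 2 arrays per genotype, and the call was lost (limma adjusted p = 0.127). With all 6 arrays and a term for the replicates numbered 3, it was -1.15 and the call held (limma adjusted p = 0.0084).

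The other HSF genes did not pass the test. Hsf4, known for its role in the eye lens, measured 5.43, 5.60 and 5.82 in Fog1ki/ki, against 5.46, 5.70 and 5.67 in Fog1+/+. Hsf5, known from the testis, measured 5.11, 4.99 and 4.93 in Fog1ki/ki, against 5.24, 5.08 and 5.06 in Fog1+/+, and these ranges overlap. Hsf3 lay between 3.01 and 3.06 in Fog1ki/ki, and between 2.97 and 3.10 in Fog1+/+, near the low end of the arrays' scale. Hsf2bp had a log2 difference of 0.21 (95% confidence interval -0.10 to 0.52), of opposite sign to that of Hsf2.

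**Figure D1:**
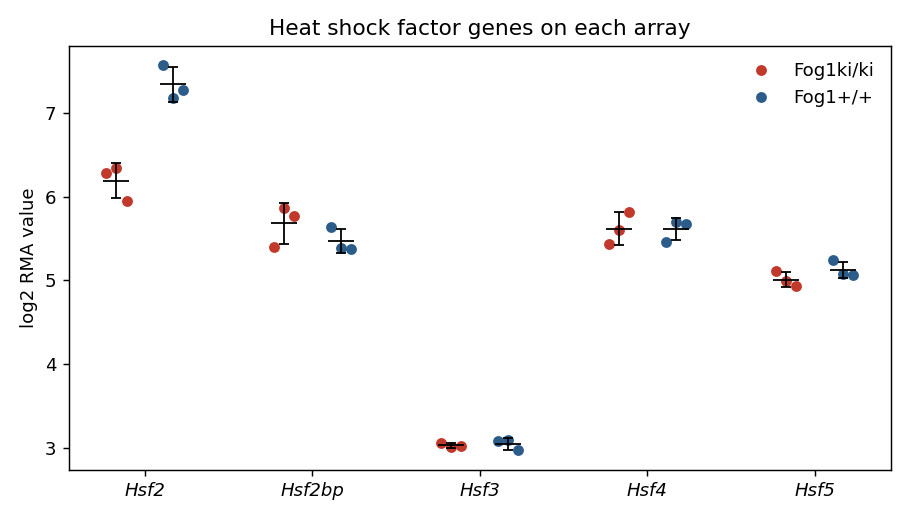
Log2 RMA values of the 5 HSF genes on each array, Fog1ki/ki in red and Fog1+/+ in blue, with bars for the mean ± SD of 3 arrays. The genotypes are apart in Hsf2, at 5.95 to 6.34 in Fog1ki/ki and 7.18 to 7.57 in Fog1+/+, and overlap in the other 4 genes.

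The gene next to Hsf2 on chromosome 10 was lower as well. Gja1, which encodes the gap junction protein connexin 43, is the tested gene that precedes Hsf2 in RefSeq order, and it was chosen after its values were seen. It measured 6.67, 6.95 and 6.63 in Fog1ki/ki, against 7.92, 7.67 and 8.01 in Fog1+/+, and the genotypes did not overlap. Gja1 fell by 1.12 on the log2 scale (SE 0.13, limma adjusted p = 0.00563). Its call was also lost without both replicates numbered 3, at a log2 difference of -0.99 (limma adjusted p = 0.153). Of the next 5 tested genes on either side of Hsf2, Gja1 alone passed. Serinc1, the tested gene that follows Hsf2, measured 9.57, 9.23 and 9.23 in Fog1ki/ki, against 9.33, 9.59 and 9.68 in Fog1+/+, and its log2 difference of -0.19 did not pass (limma adjusted p = 0.717). Smpdl3a, a phosphodiesterase gene and the 4th tested gene after Hsf2, measured 7.72, 7.38 and 7.23 in Fog1ki/ki, against 8.12, 7.95 and 8.05 in Fog1+/+. Its arrays did not overlap, and its log2 difference of -0.60 (SE 0.13) did not pass (limma adjusted p = 0.115). Across the genome, the 152 called genes included 5 pairs of adjacent tested genes called in the same direction, 3 of them lower, of which Gja1 and Hsf2 are 1 pair. Zfpm1 lies on chromosome 8, as do 4 members (Bag4, Dnaja2, Dnajb1 and Hsf4), 0 of which passed.

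**Figure D2:**
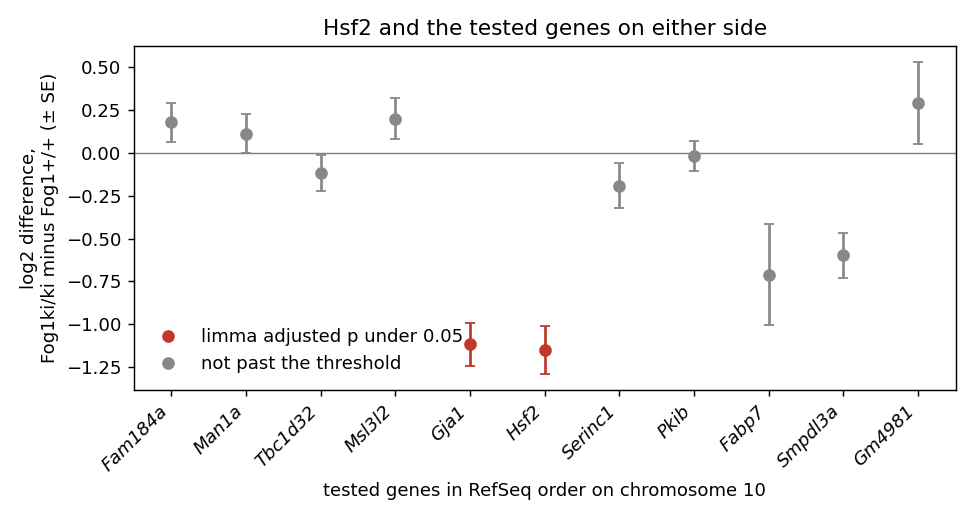
Log2 difference (Fog1ki/ki minus Fog1+/+, ± SE) of Hsf2 and the 5 tested genes on either side, in RefSeq order along chromosome 10. Gja1 at -1.12 and Hsf2 at -1.15 are the 2 genes in red, past the threshold, and the 9 others are in grey.

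Beyond Hsf2, 76 members did not pass, and their log2 differences ran from -0.58 to 0.35. At an unadjusted p under 0.05, 12 members including Hsf2 were lower in Fog1ki/ki, where 4.58% of all genes were, and 3 were higher, where 4.99% of all genes were. The split was 6 lower and 3 higher with quantile normalization repeated (4.26% of all genes lower), and 15 lower and 1 higher with each array centred on its median (6.59% of all genes lower). The 12 became 5 without Fog1+/+ replicate 3, where 3.50% of all genes were lower, and 6 without both replicates numbered 3, where 2.74% were. The 3 higher became 0 without Fog1+/+ replicate 2 and 5 without Fog1ki/ki replicate 1. Arrays of the genotypes did not overlap in 16 members that were lower, where 6.53% of all genes did not, and in 5 that were higher, where 8.31% of all genes did not. The median over all members was -0.02, against 0.02 over all genes tested, and was below 0 in all 15 alternatives run.

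The members' differences went with brightness. The tested genes were split into 4 equal groups by mean value. Of the 44 members in the brightest group (means from 7.86), 37 lay below 0, with a median log2 difference of -0.14. In the same group 67.8% of all genes lay below 0, with a median of -0.07. At an unadjusted p under 0.05, 10 of the 44 members were lower and 0 higher, where 11.5% and 3.28% of all genes in the group were. Arrays of the genotypes did not overlap in 14 of the 44 that were lower and 1 that was higher. Over the 4914 genes in the group those counts were 834 and 238. With quantile normalization repeated, 29 of the 44 members and 50.9% of all genes in this group lay below 0. In the 3 dimmer groups, from the dimmest up, the medians over all genes were 0.05, 0.05 and 0.04, and 4 of 5, 8 of 13 and 12 of 15 members lay above 0. With each array centred on its median, 41 of the 44 members and 78.7% of all genes in the brightest group lay below 0.

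**Figure D3:**
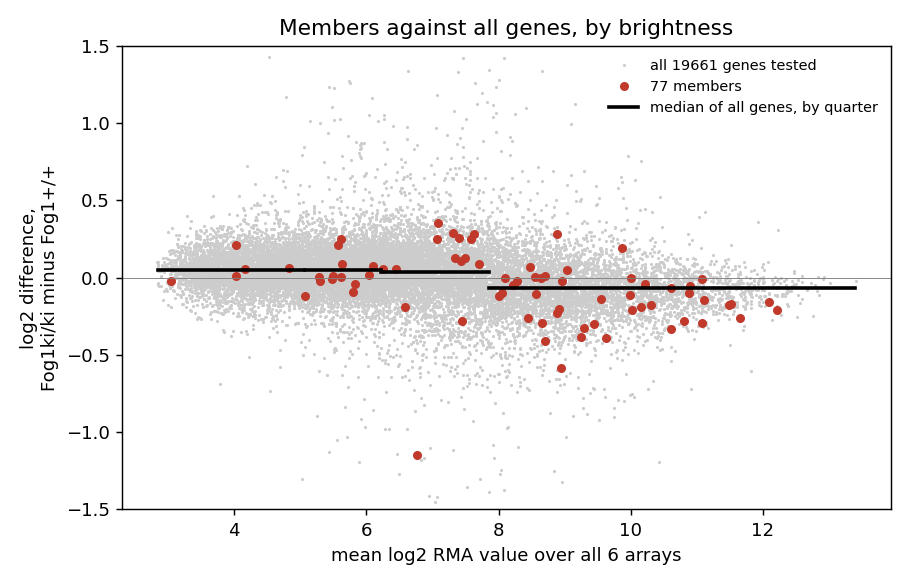
Log2 difference (Fog1ki/ki minus Fog1+/+) against the mean log2 RMA value over all 6 arrays, for the 77 members in red and all 19661 genes in grey, with black lines at the median of all genes in each brightness group. Members right of 7.86 lie mostly below 0 (37 of 44), as do 67.8% of all genes there, and 29 genes outside -1.5 to 1.5 are not drawn.

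Among the HSP70 and HSP110 genes, 10 of 13 lay below 0, 3 above, and 0 passed (median -0.17). Of those below 0, all but Hspa12b are in the brightest group, where 67.8% of all genes lay below 0. The 3 above 0 (Hspa12a, Hspa1l and Hspa2) are in dimmer groups. Hspa9, the HSP70 of the mitochondrial matrix, measured 11.53, 11.51 and 11.54 in Fog1ki/ki, against 11.79, 11.73 and 11.84 in Fog1+/+. The genotypes did not overlap, and the log2 difference of -0.26 (SE 0.09) did not pass (limma adjusted p = 0.329). Hsph1, a heat-inducible HSP110, measured 10.81, 10.83 and 11.14 in Fog1ki/ki, against 11.16, 11.33 and 11.18 in Fog1+/+, so that 1 Fog1ki/ki array came within 0.02 of the lowest Fog1+/+ value. Hspa8, the constitutive cytosolic HSP70, measured 10.50, 10.88 and 10.59 in Fog1ki/ki, against 10.93, 10.86 and 11.03 in Fog1+/+, and Fog1ki/ki replicate 2 overlapped the Fog1+/+ range. Their log2 differences were -0.30 (limma adjusted p = 0.438) for Hsph1 and -0.28 (limma adjusted p = 0.486) for Hspa8. Hspa5, the HSP70 of the endoplasmic reticulum known as BiP, had a log2 difference of -0.17 (95% confidence interval -0.45 to 0.11).

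Hspa1a, the stress-induced HSP70, had the lowest difference among the members that did not pass. It measured 7.96, 8.90 and 9.08 in Fog1ki/ki, against 9.53, 9.15 and 9.01 in Fog1+/+. Fog1ki/ki replicate 1 stood below the other arrays, which overlapped. The log2 difference was -0.58 (SE 0.27, limma adjusted p = 0.552), and -0.24 without that array. Hspa1a has a near-identical copy, Hspa1b, and a close relative, Hspa1l, so its probe set may read more than 1 gene. Hspa1l, which is best known from the testis, measured 7.67, 7.13 and 7.58 in Fog1ki/ki, against 7.93, 6.79 and 6.79 in Fog1+/+, with wide overlap.

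The heat shock element was searched in the upstream windows, on both strands, as 3 units (GAA, TTC and GAA, or TTC, GAA and TTC, with any 2 bases between units) and as 2 units (GAANNTTC, which reads the same on both strands). The 3-unit form holds a 2-unit form. It stood in 0.466% of all windows and in 3 of 81 member windows, 2 overlapping ones of Dnajb6 and 1 of the 2 windows of Hspd1. The 2-unit form stood in 6.69% of all windows and in 9 of 81 member windows, from 8 genes that include Hspa1a, Dnaja1 and Hspd1. The window of Hspa1a and the stretch around the Hspd1 elements are shown, with the elements in capitals, as the stress-induced HSP70 and the matrix chaperonin whose values are given here. The Hspa1a window is at chr17:34972157-34972406 and the Hspd1 stretch at chr1:55088053-55088082, both on the minus strand (RefSeq, GRCm38.p6):
Hspa1a: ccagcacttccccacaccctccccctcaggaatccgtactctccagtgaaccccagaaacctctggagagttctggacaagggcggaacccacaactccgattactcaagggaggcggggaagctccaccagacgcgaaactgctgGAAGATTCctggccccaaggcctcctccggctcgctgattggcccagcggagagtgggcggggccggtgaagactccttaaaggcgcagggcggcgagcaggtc
Hspd1: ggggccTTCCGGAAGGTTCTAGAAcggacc

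A list of genes known to be induced by heat had 9 members measured of 14 listed, 8 of them below 0, with a median log2 difference of -0.21, and 0 passed. That median lay between -0.26 and -0.13 in all 15 alternatives run. In the brightest group, which holds all measured members of this list but Bag3 and Hspb8, 67.8% of all genes lay below 0 (median -0.07). Dnajb1, the main DNAJ partner of the inducible HSP70, measured 9.20, 9.24 and 8.72 in Fog1ki/ki, against 9.32, 9.61 and 9.39 in Fog1+/+. The genotypes did not overlap, and the log2 difference was -0.39 (SE 0.15, limma adjusted p = 0.445). It was -0.22 without Fog1ki/ki replicate 3, the lowest array at 8.72. Bag3, which links HSP70 to selective autophagy, went the other way. It measured 7.53, 7.37 and 7.67 in Fog1ki/ki, against 7.32, 7.19 and 7.29 in Fog1+/+, and was higher by 0.26 on the log2 scale on arrays that did not overlap (limma adjusted p = 0.472, not passed). Hspd1, the matrix chaperonin, measured 11.39, 11.46 and 11.36 in Fog1ki/ki, against 11.64, 11.49 and 11.61 in Fog1+/+, a log2 difference of -0.18 (limma adjusted p = 0.600). Immediate early genes respond to handling, the part of which was not tested. Of 19 measured, 9 lay above 0 and 10 below 0 (median -0.09), and 0 passed. The one with the smallest p was Klf6, at a log2 difference of 0.87 (limma adjusted p = 0.121).

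**Figure D4:**
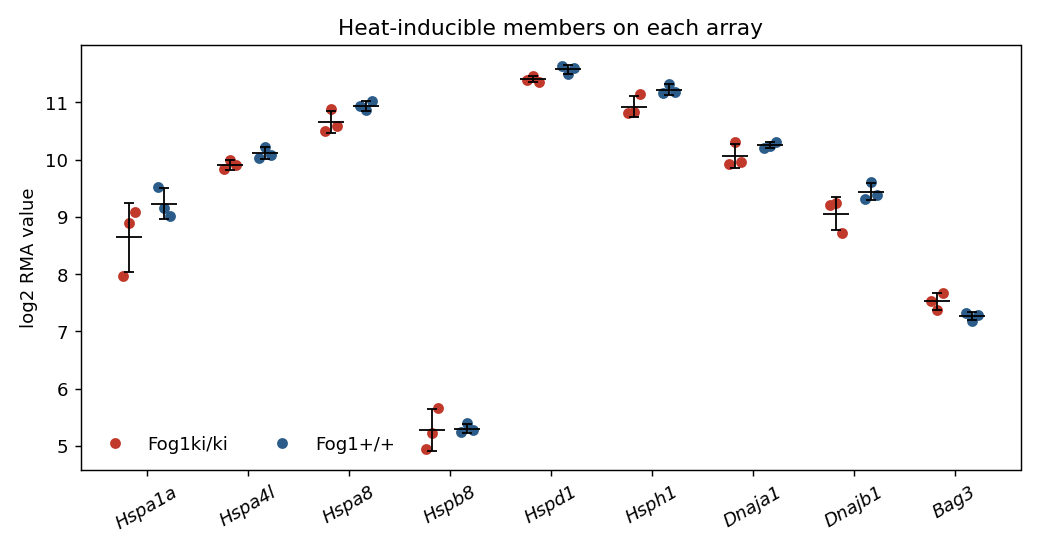
Log2 RMA values of the 9 heat-inducible members on each array, Fog1ki/ki in red and Fog1+/+ in blue, with bars for the mean ± SD of 3 arrays. Most genes sit slightly lower in Fog1ki/ki, Bag3 sits higher, and the low point of Hspa1a is Fog1ki/ki replicate 1 at 7.96.

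The DNAJC genes, the most varied class, had 17 of 27 below 0 and 10 above (median -0.04), and 0 passed. The lowest was Dnajc11, a mitochondrial protein that works with the cristae-organising complex, which measured 8.41, 8.53 and 8.56 in Fog1ki/ki, against 8.93, 8.87 and 8.93 in Fog1+/+. Dnajc10, a disulphide reductase of the endoplasmic reticulum, measured 9.52, 9.36 and 9.41 in Fog1ki/ki, against 9.87, 9.81 and 9.78 in Fog1+/+. In both genes the spread inside each genotype was small and the arrays were well apart. Both are in the brightest group, where 67.8% of all genes lay below 0. Dnajc11 had a log2 difference of -0.41 (95% confidence interval -0.61 to -0.21, limma adjusted p = 0.105) and Dnajc10 one of -0.39 (95% confidence interval -0.59 to -0.19, limma adjusted p = 0.132). These were the smallest p-values among the members after Hsf2, and neither gene passed in any of the 16 alternatives run.

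Dnajc2 and Hspa14 encode the DNAJ and HSP70 partners of the ribosome-associated complex, which receives new proteins as they leave the ribosome. Dnajc2 measured 9.13, 9.27 and 9.0 in Fog1ki/ki, against 9.48, 9.41 and 9.48 in Fog1+/+. Hspa14 measured 10.24, 10.29 and 10.13 in Fog1ki/ki, against 10.38, 10.30 and 10.52 in Fog1+/+. Neither pair overlapped, though the Hspa14 values came within 0.01 of each other, and the log2 differences were -0.32 (limma adjusted p = 0.292) for Dnajc2 and -0.18 (limma adjusted p = 0.627) for Hspa14. Dnajc8, a protein associated with the spliceosome, had a log2 difference of -0.33, and Dnajc27, a small GTPase with a J domain, had one of -0.28. Dnajc15, which acts at the import channel of the mitochondrial inner membrane, had a log2 difference of -0.23. These 3 also did not overlap between genotypes and did not pass (limma adjusted p from 0.303 to 0.474). Of the genes so far in this paragraph, all but Dnajc27 are in the brightest group. Of the 4914 genes in that group, 834 were lower on arrays that did not overlap, and 67.8% lay below 0. Over all genes tested, 6.53% were lower without overlap. Dnajc9, a DNAJ protein that also chaperones histones, measured 11.08, 11.15 and 10.98 in Fog1ki/ki, against 11.05, 11.05 and 11.13 in Fog1+/+, with a difference of -0.01 and an interval of -0.21 to 0.20. Dnajc5g, a testis relative of the cysteine string proteins, had a log2 difference of 0.21 on values of 4.07 to 4.20 in Fog1ki/ki and 3.91 to 3.94 in Fog1+/+, near the dim end of the scale.

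Among the DNAJA genes, Dnaja4, a cytosolic DNAJ protein, measured 7.03, 7.28 and 7.47 in Fog1ki/ki, against 6.89, 6.86 and 6.97 in Fog1+/+. All Fog1ki/ki values were higher, but the log2 difference of 0.35 (SE 0.12), the highest of any member, did not pass (limma adjusted p = 0.350). Dnaja1 and Dnaja2, the general cytosolic partners of HSP70, had log2 differences of -0.19 (95% confidence interval -0.46 to 0.08) and -0.07 (-0.28 to 0.15), and that of Dnaja2 turned to 0.02 with quantile normalization repeated. Dnaja3, the mitochondrial partner of Hspa9, measured 9.46, 8.89 and 9.53 in Fog1ki/ki, against 9.50, 9.61 and 9.67 in Fog1+/+, and Fog1ki/ki replicate 2 alone stood low. Of 13 DNAJB genes, 5 lay above 0, 7 below and 1 at 0, and 0 passed (median below 0.01 in size). The one at 0 was Dnajb11, a BiP co-chaperone, which measured 10.04, 10.06 and 9.90 in Fog1ki/ki, against 10.03, 9.91 and 10.06 in Fog1+/+. Its interval of -0.21 to 0.21 leaves room for a change of that size in either direction.

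The small HSP genes hold unfolded proteins without using ATP. Of 7, 6 lay above 0 and 0 passed in limma, and also 0 at an unadjusted p under 0.05. Their median was 0.05 and became 0.00 with arrays centred on the median. All but Hspb11 lie in the middle brightness groups, where the medians over all genes were 0.05 and 0.04. Hspb11 had the highest difference in the class, 0.28 (95% confidence interval -0.11 to 0.68), with 8.85, 9.37 and 8.84 in Fog1ki/ki, against 8.98, 8.48 and 8.75 in Fog1+/+. The 6 BAG genes were split 3 above 0 and 3 below. Bag1 measured 12.01, 12.13 and 11.92 in Fog1ki/ki, against 12.16, 12.24 and 12.13 in Fog1+/+, with 1 tie between the genotypes at 12.13, and a log2 difference of -0.16 (limma adjusted p = 0.667). Bag5, which has several BAG domains, measured 9.87, 10.09 and 9.92 in Fog1ki/ki, against 9.74, 9.74 and 9.82 in Fog1+/+, higher on all Fog1ki/ki arrays by a log2 difference of 0.19 that did not pass (limma adjusted p = 0.588). Hsp90b1, the HSP90 of the endoplasmic reticulum, measured 12.02, 12.17 and 12.13 in Fog1ki/ki, against 12.29, 12.34 and 12.31 in Fog1+/+, and the log2 difference was -0.21 on arrays that did not overlap (limma adjusted p = 0.504).

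**Figure D5:**
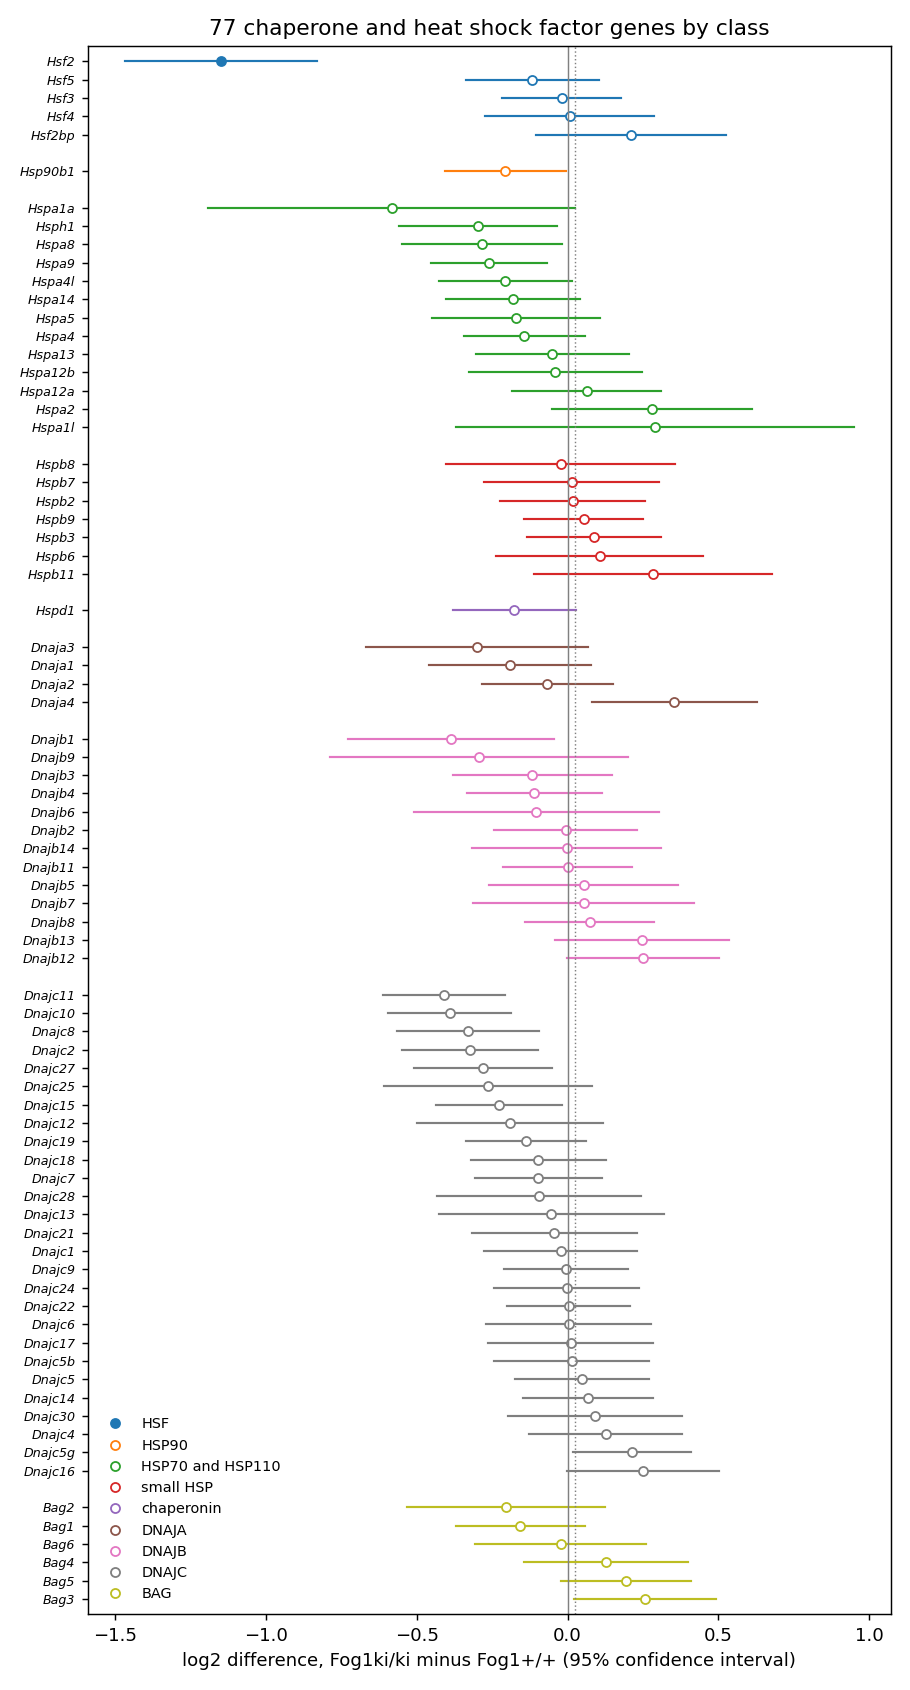
Log2 difference (Fog1ki/ki minus Fog1+/+) with its 95% confidence interval for each of the 77 members, coloured by class, where the filled point is past the threshold and the dotted line marks the median of all genes, 0.02. Hsf2 at -1.15 stands alone to the left, and the 76 others lie between -0.58 and 0.35.

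By compartment, 7 of 8 mitochondrial members lay below 0 (median -0.20), and 6 of 7 members of the endoplasmic reticulum lay below 0 with 1 at 0 (median -0.17), and 0 passed in either group. The mitochondrial median lay between -0.26 and -0.15 in all 15 alternatives, while that of the endoplasmic reticulum turned to 0.03 without both replicates numbered 3. Genes of the same pathways outside the family were counted in lists. The 14 genes of the chaperonin TRiC and of prefoldin, which fold actin and tubulin, had 13 below 0 (median -0.14) and 0 passed. Pfdn1, a prefoldin subunit, had the smallest p in that list, with a log2 difference of -0.29 (adjusted p = 0.403, limma). Of 25 co-chaperones, 18 lay below 0, 6 above and 1 at 0 (median -0.13), and 0 passed. St13, which stabilises HSP70 in its client-bound state, measured 10.34, 10.51 and 10.30 in Fog1ki/ki, against 10.81, 10.85 and 10.83 in Fog1+/+, and its log2 difference was -0.45 with no overlap (limma adjusted p = 0.0935). Hyou1, the HSP110 relative of the endoplasmic reticulum, had a log2 difference of -0.08 (adjusted p = 0.880, limma). Of 19 genes of endoplasmic reticulum folding and stress, 13 lay below 0 (median -0.11) and 0 passed. In the 15 alternatives the list medians stayed below 0 but came nearer to it. Their highest values were -0.06 for TRiC and prefoldin, -0.07 for co-chaperones and -0.035 for the endoplasmic reticulum list. The disulphide isomerase Pdia4 measured 8.31, 8.16 and 8.49 in Fog1ki/ki, against 8.72, 8.91 and 8.85 in Fog1+/+, and its log2 difference was -0.51, also with no overlap (limma adjusted p = 0.110). The brightest group held 14 of 14 genes of TRiC and prefoldin and 18 of 25 co-chaperones. It also held 12 of 19 genes of the endoplasmic reticulum list. Among compartment members, it held every measured member of the endoplasmic reticulum. Of the mitochondrial members, it held all but Dnajc28 and Dnajc30. In that group 67.8% of all genes lay below 0. Gata1 encodes the transcription factor that HSP70 is known to protect as a protein. Its RNA measured 8.47, 8.09 and 8.24 in Fog1ki/ki, against 8.54, 8.56 and 8.57 in Fog1+/+. The log2 difference of -0.29 did not pass (limma adjusted p = 0.435), and GATA1 protein was not measured.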

How the data were processed

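Expression was measured on 6 one-colour arrays, 3 per genotype, from RNA amplified with a whole-transcript kit, per the labels' protocols. The deposited log2 values were made by the authors with RMA, per the submitters' processing notes, and the program and its settings are not stated there. Of 25668 probe sets, 20777 had 1 gene in the platform annotation and were used. The brightest probe set stood for each gene. Genotypes were compared over all 19661 genes with limma 3.58.1 in R 4.3.3 (lmFit, eBayes, two-sided) and Benjamini-Hochberg adjustment, with a threshold of 0.05. An exact permutation test of 3 against 3 cannot go below p = 0.1, and the number of arrays limits the precision. The fit was tested on simulated data, where most of the smallest changes put in did not pass, so that a member that did not pass may still differ. Named genes were every called member, the extremes by difference among those at an unadjusted p under 0.05 (or the smallest p) and the brightest member of each class, all Hsf and Hsp90 genes, and chosen heat-inducible and compartment chaperones. Outside the family they were called genes or the smallest p of each list, with Ahsp (not analysed here), Zfpm1, Gata1 and Hyou1. Other genes were chosen after their values were seen. Members and lists were chosen with earlier results of these data known. RefSeq (GRCm38.p6) gave gene order and promoters. Tables and figures used Python 3.11.15, pandas 2.3.3 and matplotlib 3.10.9.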

Additional observations from a re-analysis of the deposited data

How the results depend on the processing

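The limits are those of 3 arrays per genotype, RMA's compression of dim probe sets and the scaling between arrays. Over all genes 152 passed. The count was 24 without both replicates numbered 3, when 0 members passed, and ran from 60 to 134 with each array left out. At an unadjusted p under 0.05 it was 1882 genes and 15 members. Members lower at that level numbered 12, then 6 with quantile normalization repeated, 6 without both replicates numbered 3, and 5 to 14 with each array left out. Members higher numbered 3, then 6 with array weights, 1 with arrays centred on their medians, and 0 to 5 with each array left out. With quantile normalization repeated the median log2 difference was -0.10 for the chaperonin, -0.038 for DNAJA and -0.13 for HSP90, and with centring it was -0.10 for DNAJC. Medians changed sign in some alternatives for the BAG, DNAJB and HSF classes, which were all near 0. Correlations of deviations from the genotype mean were small between same-numbered arrays (0.07, -0.01 and 0.13, the last for replicates numbered 3). Those between arrays of different numbers ran from -0.13 to 0.06. With the replicate number as a block, 133 genes and 1 member passed, with Hsf2 at a limma adjusted p of 0.0106. The medians by compartment and of the lists outside the family, the counts by brightness and the values of Gja1 were put through the alternatives after the data were seen.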

Other observations

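Dnajc13, which encodes an endosomal DNAJ protein, was the one member with several probe sets, 15 in number, and the brightest of them was used above (log2 difference -0.05). Over all 15 the log2 differences ran from -0.43 to 0.28 with a median of -0.06, 11 lay below 0, and 0 passed in a limma fit over every probe set (3 had an unadjusted p under 0.05). Dnaja1 also has a probe set that the annotation shares with the microRNA gene Mir207. It measured 9.53, 9.62 and 9.87 in Fog1ki/ki, against 9.69, 9.65 and 9.60 in Fog1+/+, a log2 difference of 0.03 (95% confidence interval -0.22 to 0.28), while the probe set of Dnaja1 alone measured 9.92, 10.31 and 9.96 in Fog1ki/ki, against 10.21, 10.24 and 10.31 in Fog1+/+. Xist measured 5.78, 9.13 and 11.03 in Fog1ki/ki, against 5.90, 5.18 and 11.02 in Fog1+/+, so that Fog1ki/ki replicate 2 lay between the other arrays, with Eif2s3y at 9.44.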
